A study of Mus musculus with 6 samples.

Results

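The 43 transcripts described here encode the machinery of DNA replication and mitosis. They were taken by symbol from the table of read counts per gene, from a list of replication and mitosis genes that used no measured value, and all 43 symbols were among its 54446 genes. The list holds 18 replication genes and 25 mitosis genes. All 43 passed the filter on low counts and were tested together with the other genes that passed, 15068 in all.

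The study compared epithelial cells of the small intestine from control mice, Prkci flox/flox, with those from knockout mice, Prkci flox/flox with Villin-CRE, to ask how loss of the polarity kinase encoded by Prkci changes enterocyte transcripts. There were 3 libraries in each group, each from a separate mouse aged 3 to 4 months, and control and knockout animals were housed together. Animals of both groups carried the floxed alleles. The Villin promoter drives Cre in intestinal epithelium, so immune and stromal cells that remain in a preparation keep the gene. The sample titles name jejunum and the series text names jejunum and ileum. RNA was measured in bulk, so fewer cells of a type and less RNA per cell cannot be told apart.

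A dividing cell licenses its replication origins with the Mcm helicase in G1, copies its DNA in S phase under cyclin E and cyclin A with Cdk2, and enters mitosis under cyclin B with Cdk1. Transcription of replication genes peaks around the G1 to S transition and depends on E2F factors, whereas mitosis genes peak in G2 and M under MuvB complexes with B-Myb and Foxm1. In the small intestine, cells divide in the crypts, where stem cells and transit-amplifying progenitors lie, and villus enterocytes have left the cycle.

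The division into replication and mitosis genes was visible in promoter sequence for some motifs, and less so for the CCAAT box. A RefSeq promoter window (GRCm38.p6, the mm10 assembly) of 250 bases before and 50 bases after the transcription start was at hand for 33 of the 43 genes, 19 mitosis and 14 replication genes. The windows were searched on both strands for the cell cycle homology region (TTTGAA or TTCGAA), the CCAAT box (CCAAT) and 4 forms of the E2F element (TTTCCCGC, TTTGGCGC, TTTCGCGC and TTTGCCGC). The homology region was present in a window of 15 of the 19 mitosis genes and of 2 of the 14 replication genes (Mcm2 and Mcm7). The share was 21.7% of all 27025 genes with a window, and 19.2% of all 32851 promoter windows. The CCAAT box was present for 17 of the 19 mitosis genes and 9 of the 14 replication genes, against 41.1% of all genes. A window with both the homology region and a CCAAT box was found for 15 mitosis and 2 replication genes. The share was 7.52% of all windows, a share of windows and not of genes. An E2F word was present in a window of 7 of the 14 replication genes (Cdc6, Cdk2, Cdt1, Mcm3, Mcm5, Mcm6 and Mcm7). It was present for 1 of the 19 mitosis genes (Cdk1), against 2.6% of all genes and 2.26% of all windows. Words of different motifs overlapped in the Cdca8 and Mcm7 windows, and E2F words overlapped one another in the Mcm5 and Mcm6 windows. Such matches describe letters in a window and not bound sites.

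The bases before the start are printed for 5 mitosis genes, chosen because they show the homology region and CCAAT boxes side by side. Each stretch is 5′ to 3′ on the gene's strand, with the homology region, the CCAAT box and any E2F word in capitals. It holds the 160 bases before the RefSeq start. For Cdc20 and Cdk1 it is cut shorter, where the gene as the count table places it begins before that start.
Mki67 (chr7:135716380-135716539, minus strand): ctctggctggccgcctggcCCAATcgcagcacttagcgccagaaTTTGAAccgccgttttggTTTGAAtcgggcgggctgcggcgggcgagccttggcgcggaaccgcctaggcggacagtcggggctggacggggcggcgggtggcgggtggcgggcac
Top2a (chr11:99024190-99024349, minus strand): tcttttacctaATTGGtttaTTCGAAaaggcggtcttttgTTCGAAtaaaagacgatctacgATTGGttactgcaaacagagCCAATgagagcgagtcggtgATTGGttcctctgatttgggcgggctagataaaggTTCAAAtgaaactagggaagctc
Cdc20 (chr4:118437353-118437503, minus strand): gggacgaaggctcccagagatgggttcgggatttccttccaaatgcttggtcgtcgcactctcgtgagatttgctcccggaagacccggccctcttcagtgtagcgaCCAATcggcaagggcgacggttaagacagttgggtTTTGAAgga
Kif11 (chr19:37376222-37376381, plus strand): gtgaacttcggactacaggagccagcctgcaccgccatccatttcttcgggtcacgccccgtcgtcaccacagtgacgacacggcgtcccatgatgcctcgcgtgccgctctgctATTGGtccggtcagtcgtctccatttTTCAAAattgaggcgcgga
Cdk1 (chr10:69352939-69353072, minus strand): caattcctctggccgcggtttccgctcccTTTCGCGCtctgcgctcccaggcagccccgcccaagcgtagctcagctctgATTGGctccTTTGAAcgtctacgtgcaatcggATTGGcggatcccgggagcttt
The homology region lay 18 bases before the start in Cdc20 and 19 in Kif11, in each case downstream of a CCAAT box. Mki67 held it at 116 and again at 98 bases before the start. Cdk1 held it at 71 bases and at 15 bases (beyond the printed stretch), and held an E2F word at 131 bases before the start.

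The replication genes below show the E2F words, again in capitals together with the CCAAT box.
Mcm5 (chr8:75109349-75109508, plus strand): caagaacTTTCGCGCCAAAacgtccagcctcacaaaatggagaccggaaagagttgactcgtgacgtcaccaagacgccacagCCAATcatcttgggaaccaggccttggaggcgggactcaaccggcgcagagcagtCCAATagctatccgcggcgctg
Mcm6 (chr1:128359706-128359865, minus strand): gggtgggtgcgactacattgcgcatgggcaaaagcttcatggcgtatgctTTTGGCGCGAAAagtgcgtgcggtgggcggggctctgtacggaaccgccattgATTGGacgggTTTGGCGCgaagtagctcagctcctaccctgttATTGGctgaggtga
Cdk2 (chr10:128705052-128705211, minus strand): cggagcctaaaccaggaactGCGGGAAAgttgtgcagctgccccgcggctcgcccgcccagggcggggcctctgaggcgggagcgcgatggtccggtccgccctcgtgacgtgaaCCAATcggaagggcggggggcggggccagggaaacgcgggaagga
In Mcm5 an E2F word began 153 bases before the start and overlapped a second on the other strand. Mcm6 held an overlapping pair of E2F words from 110 bases and another at 47 bases before the start. In Cdk2 the E2F word lay 140 bases before the start. None of these 3 windows held the homology region.

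Library totals ran from 18972906 to 26687856 counts. The 43 genes together made up 0.0482, 0.0835 and 0.0515% of the counts in controls 1 to 3 and 0.0480, 0.106 and 0.0880% in knockouts 1 to 3, and single genes had 21 to 5988 counts in a library. Prkci stood at 44.6, 46.9 and 44.0 CPM (scaled counts divided by the scaled library total, times 1e6) in the controls and 21.5, 14.6 and 21.4 CPM in the knockouts, below every control (log2 fold change −1.24, SE 0.17, edgeR adjusted p = 0.0719). Xist and Ddx3y marked control 3, knockout 2 and knockout 3 as female, which goes against the series text for control 2, control 3 and knockout 3. Genes annotated at ribosomal RNA loci took 2.16 to 2.91% of counts in controls and 4.89 to 5.91% in knockouts. The differentiated enterocyte list, 12 genes, summed to 54524 to 63973 CPM in controls and 55709 to 72940 CPM in knockouts, so the defining transcripts of the labelled enterocytes were abundant in every library, and no gene of any marker list was at 0 in all libraries.

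The cell cycle genes moved together from library to library, and the libraries of one genotype did not stay together. Control 2 was the highest control for 43 of 43 genes, against 36.9% of all genes tested. Knockout 2 was the highest of all 6 libraries for 38 of 43 genes, including 25 of 25 mitosis genes, against 23.5% of all genes. Knockout 1 exceeded every control for 0 of 43 genes and was below every control for 20 (31.0% and 32.6% of all genes). Knockouts 2 and 3 both exceeded every control for 30 of 43 genes, against 25.7% of all genes. These genes share libraries and vary together, so they are not independent counts of the same pattern.

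**Figure D1:**
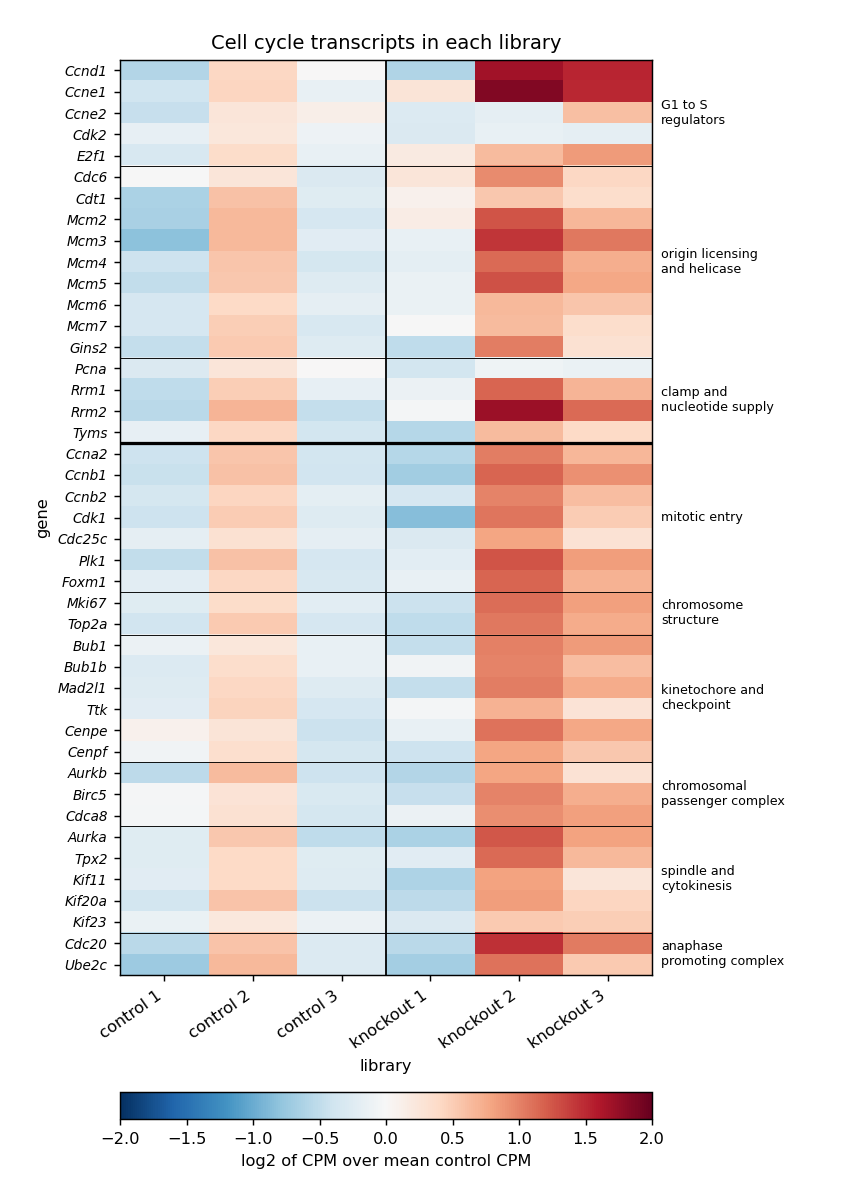
Each row is a cell cycle gene grouped by role, each column a library, and colour is log2 of CPM over the mean control CPM. Knockouts 2 and 3 and control 2 are above the control mean for most genes, whereas knockout 1 resembles controls 1 and 3.

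No member passed the test of knockout against control. The edgeR quasi-likelihood test with Benjamini-Hochberg adjustment called 0 of the 43 genes at 0.05, where it called 9 of 15068 genes (0.0597%), and the DESeq2 Wald test also called 0 of 43, where it called 836 genes (5.55%). At an unadjusted edgeR p under 0.05 there was 1 member, Ccne1, against 16.4% of all genes, and 3 by DESeq2, against 17.5%. The groups overlapped for every member, while they did not overlap for 21.8% of all genes. The log2 fold change was above 0 for 41 of 43 members (50.7% of all genes), all but Cdk2 and Pcna. Its median was 0.57 over the members, 0.57 over the replication genes and 0.57 over the mitosis genes, against 0.01 over all genes. Scaling by library totals alone moved the median of all genes to −0.10, and that of the members to 0.42.

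The spread between mice was wide for these genes. The median SD of log2 CPM was 0.41 over the members among controls, against 0.18 over all genes, and 0.68 among knockouts, against 0.27. With the replicate number as a block, 0 of 43 members and 0 of all 15068 genes (0%) passed. At an unadjusted p under 0.05 that fit had 15 members, 10 replication and 5 mitosis genes, all higher in the knockouts, against 9.32% of all genes higher in that fit.

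The mean level of each set shows the same order. Relative to the control mean, the replication level (mean log2 CPM of its 18 genes) was −0.36, 0.50 and −0.15 in controls 1 to 3 and −0.08, 0.94 and 0.69 in knockouts 1 to 3. Knockouts 2 and 3 were above every control and knockout 1 lay between controls 3 and 2. The difference of the group means was 0.52, with SDs of 0.45 in controls and 0.53 in knockouts (n = 3 each). The mitosis level (25 genes) was −0.23, 0.48 and −0.25 in the controls and −0.36, 1.04 and 0.68 in the knockouts. Here knockout 1 was the lowest of the 6 libraries. The group means differed by 0.45, with SDs of 0.41 and 0.73. Both differences exceeded the SD of the controls and were below that of the knockouts. Between libraries with the same replicate number, knockout minus control was 0.28, 0.44 and 0.84 for replication and −0.13, 0.56 and 0.92 for mitosis in numbers 1 to 3. By sex from Xist, the difference was 0.96 (replication) and 1.11 (mitosis) in the 3 female libraries and −0.15 and −0.48 in the 3 male ones, each with 1 library in one of the genotypes.

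The gap between mitosis and replication levels was narrowest in 1 library. The mitosis minus the replication level was 0.50, 0.35 and 0.28 in the controls and 0.10, 0.48 and 0.37 in the knockouts, so that knockout 1 was below the other 5. Knockout 1 exceeded both control 1 and control 3 for 12 of 18 replication genes and for 5 of 25 mitosis genes, against 37.2% of all genes. This count leaves out control 2, the highest control for 43 of 43 members but for 36.9% of all genes, so the share of all genes is not a like one. It restates the values of the same library and is not separate evidence. Knockout 1 exceeded every control for 0 of 18 replication and 0 of 25 mitosis genes, against 31.0% of all genes. The group means of this quantity differed by −0.06 (SDs 0.11 and 0.20), which is within the spread.

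**Figure D2:**
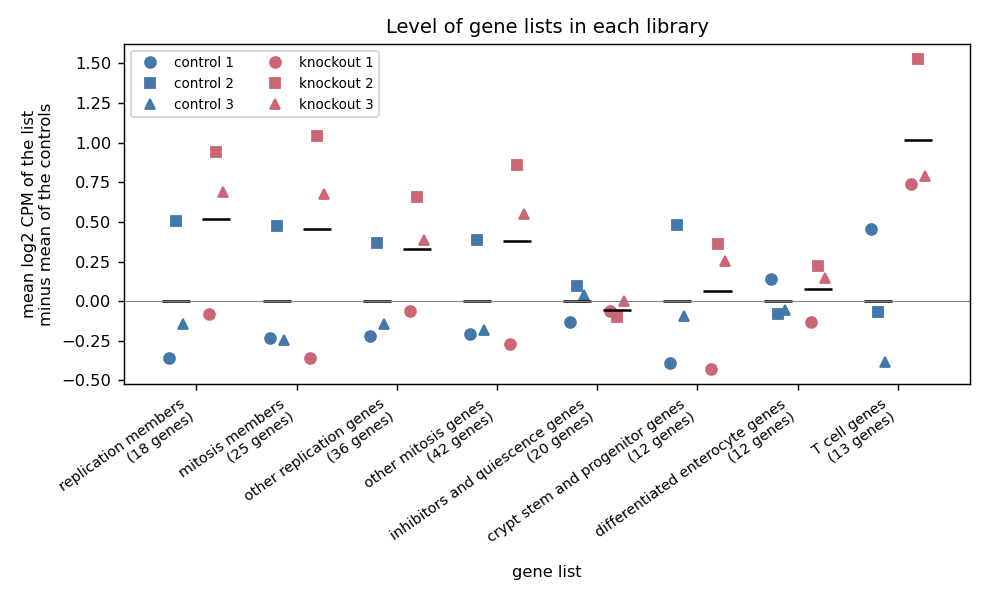
Points are libraries and bars group means of the mean log2 CPM of each list, minus the mean of the controls. For the replication, mitosis and related lists control 2 lies above the other controls and knockout 1 below knockouts 2 and 3, while the inhibitor list stays within −0.13 and 0.09.

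Among the 5 regulators of the G1 to S transition, cyclins D1 and E1 had the largest fold changes of all members, and Cdk2 and Ccne2 the smallest of the group. Ccnd1 (ENSMUSG00000070348.5, chromosome 7, 144929931 to 144939925), cyclin D1, the partner of Cdk4 and Cdk6, stood at 12.6, 25.3 and 19.2 CPM in the controls and 12.6, 60.8 and 54.5 CPM in the knockouts. Knockouts 2 and 3 exceeded the highest control, and knockout 1 was level with the lowest. Its log2 fold change was 1.16 (SE 0.55, edgeR adjusted p = 0.344). Ccnd1 overlaps Oraov1, whose counts amounted to 62.0% of those of Ccnd1.

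Ccne1 (ENSMUSG00000002068.16, chromosome 7, 38097984 to 38107534), cyclin E1, which activates Cdk2 at the start of S phase, was a low transcript at 1.06, 1.87 and 1.26 CPM in the controls and 1.67, 5.01 and 3.96 CPM in the knockouts. Knockout 1 fell within the control range and the other knockouts lay above it. The log2 fold change was 1.35 (SE 0.44, unadjusted p = 0.0179, edgeR adjusted p = 0.216). Ccne2, cyclin E2, had a log2 fold change of 0.11 and E2f1, the activating E2F factor, one of 0.58. Cdk2, the kinase that both cyclins E bind, stood at 9.90, 13 and 10.3 CPM in the controls and 9.11, 10.0 and 9.73 CPM in the knockouts. Every knockout was below control 2, and the log2 fold change was −0.20 (SE 0.16, edgeR adjusted p = 0.539).

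The 9 origin licensing and helicase genes had log2 fold changes from 0.34 to 0.92, with adjusted p from 0.330 to 0.667. Mcm3 (ENSMUSG00000041859.10, chromosome 1, 20802968 to 20820312), a subunit of the Mcm2-7 helicase, was at 3.83, 10.6 and 5.78 CPM in the controls and 6.07, 18.2 and 13.9 CPM in the knockouts (log2 fold change 0.92, SE 0.48, edgeR adjusted p = 0.388). Mcm6, the most abundant of the helicase subunits by CPM, was at 16.6, 27.6 and 18.5 CPM and 18.97, 32.8 and 30.8 CPM (log2 fold change 0.40, SE 0.27, edgeR adjusted p = 0.481). For both, knockouts 2 and 3 exceeded every control and knockout 1 lay between control 3 and control 2. The remaining subunits had log2 fold changes of 0.77 (Mcm2), 0.65 (Mcm4), 0.75 (Mcm5) and 0.35 (Mcm7). Cdc6 and Cdt1, which load the helicase on origins, had 0.57 and 0.34, and Gins2, part of the active helicase, 0.41. Counts of Mcm7 and Gins2 cannot be told apart from those of overlapping genes.

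The 4 clamp and nucleotide supply genes had log2 fold changes from −0.19 to 1.10. Rrm2 (ENSMUSG00000020649.11, chromosome 12, 24708241 to 24714146), the small subunit of ribonucleotide reductase, was at 4.14, 9.62 and 4.31 CPM in the controls and 5.87, 19.7 and 13.2 CPM in the knockouts (log2 fold change 1.10, SE 0.50, edgeR adjusted p = 0.326). Pcna (ENSMUSG00000027342.14, chromosome 2, 132249162 to 132253314), the sliding clamp of the replicative polymerases, was at 22.6, 32.5 and 27.7 CPM and 21.3, 26.1 and 25.3 CPM. Pcna in knockouts 2 and 3 stayed within the control range, unlike Rrm2. Its log2 fold change was −0.19 (SE 0.16, edgeR adjusted p = 0.588). Rrm1, the large reductase subunit, had a log2 fold change of 0.67 and Tyms, thymidylate synthase, one of 0.25.

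**Figure D3:**
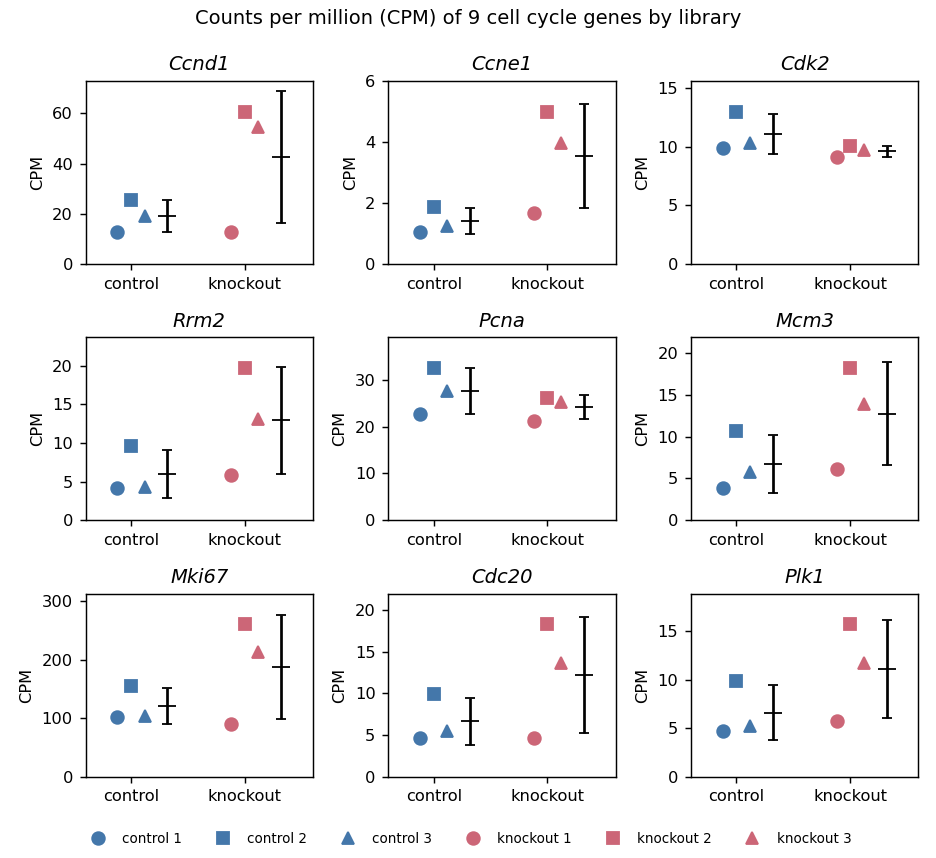
CPM of 9 cell cycle genes, with 1 point per library and the mean and SD of each group (n = 3). For Ccnd1, Ccne1, Rrm2, Mcm3, Mki67, Cdc20 and Plk1, knockouts 2 and 3 lie above the controls and knockout 1 lies among or below them. For Cdk2 and Pcna every knockout lies below control 2.

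The 7 mitotic entry genes had log2 fold changes from 0.33 to 0.75, with adjusted p from 0.388 to 0.659. Ccna2, cyclin A2, which acts in S phase and at mitotic entry, was the most abundant of them at 11.7, 23.0 and 12.1 CPM in the controls and 10.5, 31.7 and 24.8 CPM in the knockouts (log2 fold change 0.52, SE 0.43, edgeR adjusted p = 0.568). Plk1 (ENSMUSG00000030867.7, chromosome 7, 122159439 to 122169873), the Polo-like kinase of mitotic entry and spindle assembly, was at 4.71, 9.87 and 5.23 CPM and 5.72, 15.7 and 11.8 CPM (log2 fold change 0.75, SE 0.42, edgeR adjusted p = 0.416). Knockout 1 was below every control for Ccna2 and between controls 3 and 2 for Plk1. Cyclins B1 and B2 (Ccnb1 and Ccnb2) had log2 fold changes of 0.67 and 0.52, their kinase Cdk1 had 0.44, the phosphatase Cdc25c that activates it 0.33, and the transcription factor Foxm1 0.67.

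Mki67 (ENSMUSG00000031004.8, chromosome 7, 135689784 to 135716361), the Ki-67 protein that coats mitotic chromosomes and is used to stain cycling cells, had the highest CPM of the 43. Its CPM was 103, 156 and 104 in the control libraries, a mean of 121 ± 30.3 (SD, n = 3), against 89.4, 261 and 213 among knockouts, a mean of 188 ± 88.5 (SD, n = 3). Its highest 2 values were knockouts 2 and 3 and its lowest was knockout 1. The log2 fold change was 0.64 (SE 0.38, edgeR adjusted p = 0.432). Top2a, the topoisomerase that untangles sister chromatids, had a log2 fold change of 0.57.

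The kinetochore and checkpoint group, 6 genes, had log2 fold changes from 0.34 to 0.66. Cenpe (ENSMUSG00000045328.11, chromosome 3, 135212537 to 135273611), the kinetochore motor that moves chromosomes to the spindle equator, was at 22.4, 25.2 and 15.6 CPM in the controls and 18.9, 44.7 and 35.9 CPM in the knockouts (log2 fold change 0.66, SE 0.32, edgeR adjusted p = 0.363). Here controls 1 and 2 were close together, and knockout 1 lay within the controls. The spindle checkpoint genes Bub1, Bub1b, Mad2l1 and Ttk had 0.60, 0.58, 0.57 and 0.34, and the kinetochore protein gene Cenpf 0.39.

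The chromosomal passenger complex corrects faulty attachments of chromosomes to the spindle. Birc5, survivin, was at 9.28, 11.3 and 7.58 CPM in the controls and 6.83, 18.6 and 15.6 CPM in the knockouts (log2 fold change 0.54, SE 0.36, edgeR adjusted p = 0.475). Cdca8, borealin, was at 7.57, 9.58 and 6.07 CPM and 7.13, 14.8 and 13.6 CPM (log2 fold change 0.62, SE 0.30, edgeR adjusted p = 0.364). Both stood above every control in knockouts 2 and 3 and at or below the middle control in knockout 1. Aurkb, the kinase of the complex, had the smallest log2 fold change of the group, 0.27.

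Of the 5 spindle and cytokinesis genes, Aurka, the centrosomal Aurora kinase, had the largest log2 fold change. It was at 4.49, 7.75 and 3.73 CPM in the controls and 3.44, 12.6 and 9.29 CPM in the knockouts (log2 fold change 0.67, SE 0.48, edgeR adjusted p = 0.508). Kif23, a kinesin of the cytokinetic midzone, was at 18.1, 23.0 and 18.2 CPM and 16.2, 28.4 and 27.9 CPM (log2 fold change 0.29, SE 0.23, edgeR adjusted p = 0.553). For both, knockout 1 was the lowest library. Tpx2, the activator of Aurora A, had 0.62, the spindle motor gene Kif11 0.26 and the cytokinesis kinesin gene Kif20a 0.35.

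The last role is the anaphase promoting complex, the ubiquitin ligase that ends mitosis. Cdc20 (ENSMUSG00000006398.15, chromosome 4, 118432901 to 118437352), its activator, was at 4.58, 9.87 and 5.52 CPM in the controls and 4.603, 18.3 and 13.6 CPM in the knockouts. Its log2 fold change, 0.87 (SE 0.51, edgeR adjusted p = 0.425), was the largest of the mitosis genes. Cdc20 overlaps Elovl1, whose own counts amounted to 1280% of those of Cdc20. Ube2c, the ubiquitin-conjugating enzyme of the complex, was at 4.88, 12.7 and 6.74 CPM and 5.06, 17.3 and 11.6 CPM (log2 fold change 0.48, SE 0.50, edgeR adjusted p = 0.648). In knockout 3 Ube2c was below control 2, unlike Cdc20.

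**Figure D4:**
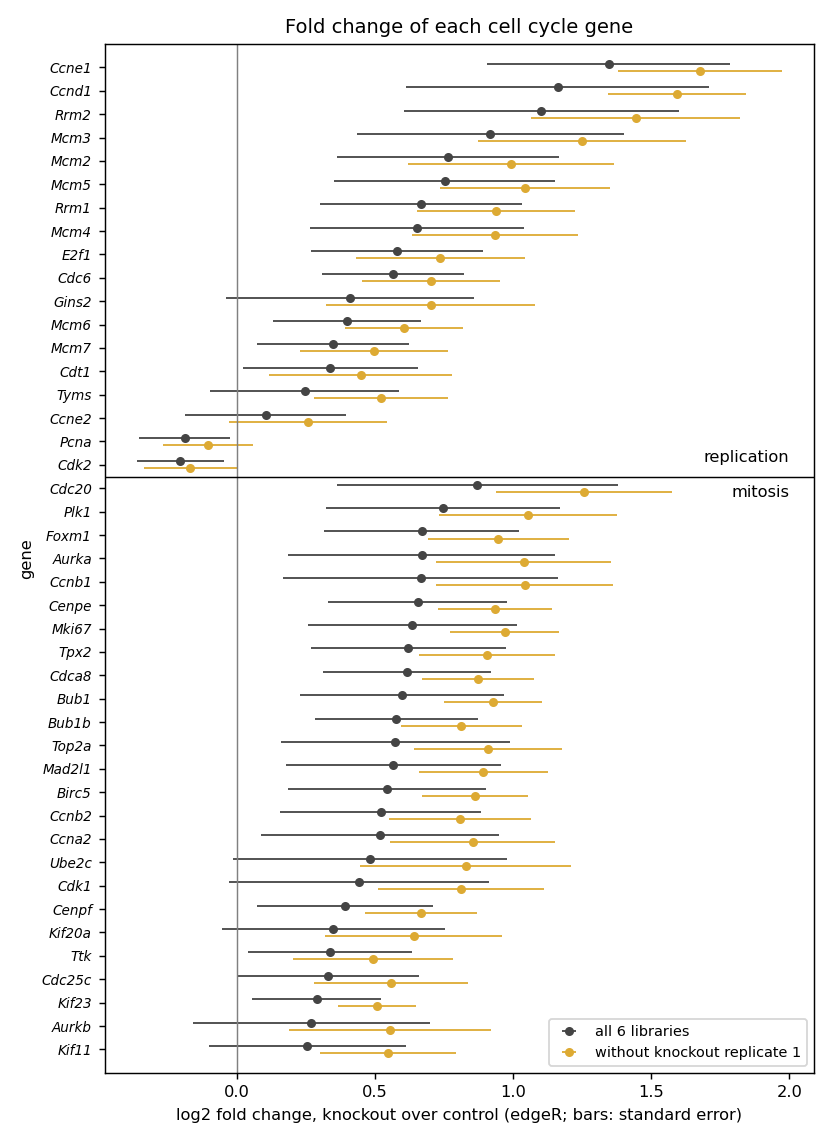
Points are edgeR log2 fold changes of knockout over control for each of the 43 genes and bars are standard errors, with all 6 libraries and without knockout 1. All but Cdk2 and Pcna are above 0 in both fits, and all but those 2 move further from 0 without knockout 1.

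The call on these genes rested on knockout 1. Without it, edgeR called 14 members, all higher in the knockouts, where it called 1549 of 15470 genes higher (10%) and 2700 in either direction (17.5%). Of the 14, 3 were replication genes (Ccnd1, Ccne1 and Rrm2) and 11 mitosis genes (Foxm1, Mki67, Bub1, Bub1b, Mad2l1, Cenpe, Birc5, Cdca8, Tpx2, Kif23 and Cdc20). The members' median log2 fold change was then 0.85. Ccnd1 had a log2 fold change of 1.59 (SE 0.25, adjusted p = 0.00733), Ccne1 of 1.68 (SE 0.30, adjusted p = 0.0113) and Mki67 of 0.97 (SE 0.20, adjusted p = 0.0175). Over all alternatives the adjusted p ran from 0.00733 to 0.747 for Ccnd1, from 0.0113 to 0.524 for Ccne1 and from 0.0175 to 0.794 for Mki67. Both libraries left in the knockout group were female by Xist, against 1 of 3 controls, so that genotype and sex were partly confounded there. With all 6 libraries the groups were also unbalanced for sex, since knockouts 2 and 3 and control 3 were female by Xist. Leaving out any other library gave 0 members called.

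Levels of different genes are compared here per length of exon, as reads per kilobase of exon scaled to library size (RPKM), for the 40 genes with an exon length. Mki67 had the highest mean RPKM in the controls, 12.02, followed by Pcna at 11.5 and Top2a at 7.23. Ccnb2, Mcm6 and Ccnd1 came next at 4.56, 4.48 and 4.04. The lowest were E2f1 at 0.367, Gins2 at 0.402 and Ccne1 at 0.524. The median over the replication genes was 1.99 in the controls and 2.99 in the knockouts, and over the mitosis genes 2.16 and 3.18.

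Further replication and mitosis genes, outside the 43, were likewise highest in knockout 2, with control 2 the highest control, by mean level. Of 36 other replication genes, 28 had a log2 fold change above 0 (median 0.38), and of 42 other mitosis genes, 40 did (median 0.42). The share above 0 over all genes was 50.7%. EdgeR called 0 genes of either list, against 0.0597% of all genes. At an unadjusted p under 0.05 there were 1 higher and 1 lower replication gene and 3 higher mitosis genes. Over all genes, 16.4% passed that p in either direction. Hmmr, a spindle-associated protein, was at 8.18, 9.79 and 7.53 CPM in the controls and 5.87, 34.5 and 25.6 CPM in the knockouts (log2 fold change 1.37, SE 0.55, edgeR adjusted p = 0.282). Knockout 1 was the lowest library for Hmmr and knockouts 2 and 3 were above every control. Without knockout 1, edgeR called 5 of the other replication genes higher and 1 lower, and 15 of the other mitosis genes higher, against 10% of all genes higher and 17.5% in either direction in that fit. The 6 of 36 replication genes are near that share.

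Inhibitors of the cycle and genes of quiescence did not share the pattern. Of the 20 tested, 12 had a log2 fold change above 0 (median 0.04), against 50.7% of all genes. EdgeR called 0, and at an unadjusted p under 0.05 there were 4 lower and 0 higher. Those 4, Cdkn2b, Ccng1, Cdkn1b and Cdkn2c, were lower in every knockout than in any control. Among all genes, 7.09% were lower at that p and 11.7% were lower in every knockout. Another 1 of the 20 was higher in every knockout, and groups did not overlap in either direction for 21.8% of all genes. Cdkn2b, the p15 inhibitor of Cdk4 and Cdk6, stood at 81.4, 96.8 and 107 CPM in the controls and 76.6, 54.7 and 59.9 CPM in the knockouts (log2 fold change −0.57, SE 0.16, edgeR adjusted p = 0.180). Cdkn1b, the p27 inhibitor of cyclin-dependent kinases, was at 53.2, 55.0 and 49.4 CPM and 48.1, 38.0 and 41.8 CPM (log2 fold change −0.30, SE 0.12, edgeR adjusted p = 0.271). Knockout 1 was the nearest to the controls for both. Without knockout 1, edgeR called 3 of the 20 lower (Cdkn1b, Cdkn2b and Btg1) and 0 higher. That fit called 1151 of 15470 genes lower and 17.5% of all genes in either direction. Of 16 other cyclins, kinases and cell cycle transcription factors, 12 were above 0 (median 0.20), against 50.7% of all genes. EdgeR called 0 of them, and 1, Tfdp2, was lower at an unadjusted p under 0.05 (7.09% of all genes). Without knockout 1, edgeR called 2 of these 16, E2f2 higher and Tfdp2 lower, again against 17.5% of all genes in either direction.

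By mean level, crypt stem and progenitor genes had the same highest control and the same lowest and highest knockout as the cell cycle genes. The difference between the groups was smaller. Their mean level relative to the control mean was −0.39, 0.48 and −0.09 in the controls and −0.43, 0.36 and 0.25 in the knockouts, a difference of 0.06. Against this level, the replication genes were at 0.03, 0.02 and −0.05 in the controls and 0.35, 0.58 and 0.44 in the knockouts, and the mitosis genes at 0.16, −0.01 and −0.15 and 0.07, 0.68 and 0.42. For the replication genes this put every knockout above every control, and for the mitosis genes knockout 1 stayed within the controls. This scaling was chosen after seeing the data. The crypt level averages genes that went in opposite directions, so it does not measure the size of the dividing compartment. Within the list, Lgr5, the stem cell receptor, was at 2.90, 9.71 and 4.52 CPM in the controls and 2.23, 2.79 and 1.72 CPM in the knockouts. Cd44, a crypt surface receptor that T cells also carry, was at 14.5, 24.0 and 15.7 CPM and 32.02, 86.0 and 90.9 CPM. Lgr5 was lower and Cd44 higher in every knockout than in any control, with edgeR adjusted p of 0.228 and 0.118. Of the 12 genes of the list, no others had groups that did not overlap, against 21.8% of all genes. Log2 fold changes were above 0 for 7 of the 12 and below 0 for 5 (median 0.04).

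Markers of other cell types also differed between libraries. The 13 T cell genes, of cells that can divide, summed to 190 to 331 CPM in controls and 391 to 940 CPM in knockouts, with the highest sum in knockout 2, and 13 of 13 had a log2 fold change above 0. The 10 B and plasma cell genes summed to 190 to 345 CPM in controls and 407 to 653 CPM in knockouts, and the 10 macrophage and dendritic cell genes to 17.5 to 19.6 CPM and 37.5 to 49.9 CPM. Both lists were highest in knockout 1, where the mitosis genes were lowest. The 8 smooth muscle genes summed to 1.496 to 4.604 CPM in controls and to 36.1, 1.83 and 73.9 CPM in knockouts 1 to 3, and the 8 fibroblast genes, Vim among them, to 302 to 326 CPM in controls and 196 to 290 CPM in knockouts. Most fibroblast genes went against that sum: 6 of the 7 tested had a log2 fold change above 0 (median 1.78), and their mean level relative to the control mean was 2.22, −0.27 and 1.63 in knockouts 1 to 3. The 10 Paneth cell genes summed to 1690 to 6058 CPM in controls, highest in control 2, and 790 to 1456 CPM in knockouts. The 8 epithelial genes summed to 7802 to 8252 CPM in controls and 8828 to 10418 CPM in knockouts. Their part in the cell cycle results was not tested. Scaled to the epithelial genes, the difference in level was 0.22 for the replication genes and 0.16 for the mitosis genes.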

How the data were processed

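RNA sequencing of intestinal epithelial cells gave 6 libraries. Epithelium was released with EDTA and dithiothreitol, per the labels' protocols, which name both poly-A selection and a kit that removes ribosomal RNA. Reads were handled with bcl2fastq 2.17, FastQC, Trim Galore and STAR 2.5.0a on mm10, per the submitters' processing notes. The deposited values are whole read counts for each gene, without normalization. For the read counter, its strandedness and the gene models, the tool and version are not given in the sources read, and reads of overlapping genes cannot be told apart. Of the members, 19 overlap another gene. For 10 (Ccnd1, Ccne2, Cdk2, Mcm7, Gins2, Ccna2, Plk1, Cdca8, Kif20a and Cdc20) the separate count of such a gene amounted to at least 10% of the member's count.

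These counts were fitted with edgeR 4.0.16 (R 4.3.3; trimmed-mean scaling, default filter with minimum count 10, two-sided quasi-likelihood F test, genotype as the only term). P-values were adjusted by Benjamini-Hochberg over 15068 genes, with a threshold of 0.05. Standard errors are log2 fold changes over the square root of F, and levels are means of log2 CPM with prior count 2. Exon lengths came from GENCODE mouse release M21. Alternatives were DESeq2 1.42.0 (size factors and Wald test), limma-voom (limma 3.58.1), library totals, other filters, sex terms, the replicate block and leaving out each library. Each gene test was first tested on simulated data. Values in every library are given by rule for members with an unadjusted p under 0.05 and for those most abundant or with the largest fold change of their role, and other genes were chosen after their values were seen where they lie outside the 5 smallest p of a list. The values of 1 gene of the other replication genes are not reported here. The members, lists and tests were chosen with earlier results of these data known.

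Replicate numbers in the titles were checked as a pairing. Deviations from group means correlated at 0.117, 0.119 and 0.149 for same-numbered libraries and at −0.143 to 0.00929 for others. All 3 exceeded 0.1, so the blocked value is given where it moves a count. No label says what a number marks. No 2 libraries of a group agree within sampling noise (lowest chi-square per gene 23.8).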

Additional observations from a re-analysis of the deposited data

Results flagged for a closer look

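The mitosis genes differed between knockout and control in opposite directions in the libraries that Xist marks as female and male. The difference in mitosis level was 1.11 in the female libraries (knockouts 2 and 3 against control 3) and −0.48 in the male ones (knockout 1 against controls 1 and 2). The mitosis minus replication level differed by 0.14 and −0.33. These differences of level were not tested, and each sex has only 1 library in one of the genotypes. Per gene, a genotype by sex interaction was also fitted with edgeR, and its counts of genes passing are left out here. With a single female control and a single male knockout, that test takes its spread from the other 2 groups, and the male knockout is the library whose low mitosis level is described above, so its counts do not bear on the difference in level.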

How the results depend on the processing

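The number of genes called was 9 by edgeR, 16 with library totals, 284 with no filter, 836 by the DESeq2 Wald test and 5 by limma-voom. It was 4 with the sex of the series text and 11 with the sex by Xist and Ddx3y, and leaving out 1 library gave 0 to 2700. With the replicate block it was 0, and Prkci kept its direction. The main fit called 0 members, so there was no call among them for the pairing to end. Members called stayed at 0 under each alternative except leaving out a library, which gave 0 to 14. The same ranges were 0 to 6 for the other replication genes, 0 to 15 for the other mitosis genes, 0 to 3 for inhibitors and 0 to 2 for other cyclins and kinases, each highest without knockout 1. Prkci passed with no filter (−1.22), by DESeq2 (−1.23) and without knockout 1, with a leave-one-out range of −1.33 to −1.06. Members named by the rule kept their direction under each alternative, 9 of them newly past the threshold without knockout 1, and 38 to 41 of all members were above 0. With the sex by Xist and Ddx3y as a term, the members' median log2 fold change was 0.32, against 0.57 in the main fit. In that fit 0 members had an unadjusted edgeR p under 0.05, and the log2 fold change was 0.52 for Ccnd1 and 0.33 for Mki67. By Xist, the replication level difference was −0.15 in males, the mitosis difference 1.11 in females and −0.48 in males, and the mitosis minus replication difference 0.14 and −0.33. The other alternatives gave level differences from 0.22 to 0.96 (replication) and 0.16 to 0.86 (mitosis). Low counts, down to 21 in a library for E2f1, limit the least abundant members.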
